A study of Saccharomyces cerevisiae with 12 samples.

Results

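The loci described here are the Xrn1-sensitive unstable transcripts (XUTs) of budding yeast that share no base on their own strand with a stable unannotated transcript (SUT) or a cryptic unstable transcript (CUT). The deposited annotation holds 20619 features, of which 1656 are XUTs, and 931 of these XUTs met the rule. They were between 252 and 5195 bases long, with a median of 552. Of the 931 XUTs, 622 lay opposite an mRNA, 70 opposite another annotated RNA and 202 on a strand with no annotated transcript opposite, where only a feature drawn as antisense or intergenic was counted. For 37 XUTs no feature on the opposite strand held at least 0.5 of them.

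The RNA-seq libraries came from 4 groups of 3: cytoplasmic fractions and total lysates of mex67-5 xpo1-1 cells, and cytoplasmic fractions and total lysates of wild-type cells. All cells had been kept at 37 °C for 1 h, the restrictive temperature of the mutant, whose mRNA export receptors Mex67 and Crm1 (Xpo1) both carry temperature-sensitive alleles on plasmids while the chromosomal copies are disrupted. The labels give the strain BY4741 for every library, the study's list of strains gives the mutant other auxotrophic markers, and the strains were not shown to be isogenic. The cytoplasmic fraction is the supernatant after spheroplasts were broken in a Ficoll buffer and spun at low speed, and it was set against total lysate.

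XUTs are RNA polymerase II transcripts, capped and polyadenylated, that become visible when Xrn1, the main cytoplasmic 5′ to 3′ exonuclease, is missing. Many run antisense to a gene. Their removal passes through decapping and, for many of them, nonsense-mediated decay on ribosomes, so they are known as lncRNAs that reach the cytoplasm, whereas CUTs are removed in the nucleus by the exosome.

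The labels describe the libraries as non-stranded, but the reads are strand-marked, and an RNA's reads fell on the feature drawn across from it. In wild-type total lysates the feature of TDH3, a glycolytic gene, held a mean of 154 reads, while the feature drawn opposite to it held 492723. Over 7 highly expressed genes, the reads on a gene's own feature came to between 0.0277 and 0.451% of those on the opposite feature, per base. Each XUT was therefore measured by the counts of an opposite-strand feature holding at least 0.5 of it, and only where no other annotated transcript lies on the XUT's strand within that feature. This left 373 XUTs, of which 191 lay opposite an mRNA, 24 opposite another RNA and 158 on a strand with no annotated transcript opposite. At the other 521 XUTs the opposite feature held a further transcript, so no value is given for them. Nearest to the limit, XUT_9R-38 was held to 50.2% and read, and XUT_10R-257 was held to 49.9% and not read. Their means in the 4 groups, in reads per kilobase of the counted feature and per unit of scaled library size (RPKM), were 24.6, 6.83, 4.32 and 1.88 RPKM for XUT_9R-38 and 1.46, 0.636, 1.44 and 0.686 RPKM on the feature opposite XUT_10R-257, in the order mutant cytoplasm, mutant total, wild-type cytoplasm, wild-type total.

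A counted feature is often longer than the XUT, and then it also takes reads of any other RNA that runs on the XUT's strand within it. The XUT covers at least 0.5 of the counted feature at 211 loci and less at 162. The share is given below for some of the loci described only. Where it is not, it was for example 19.3% at XUT_15F-180, 23.4% at XUT_16F-1, 25.8% at XUT_7R-308 and 26.6% at XUT_10F-42. It was 33.4% at XUT_15R-380, 33.6% at XUT_16R-346, 47.2% at XUT_16R-29 and 48.6% at XUT_12R-135. Higher shares were 72.7% at XUT_5R-40 and 84.6% at XUT_16R-94.

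The sequences before the annotated starts are shown for XUTs with the largest falls in the mutant, for 1 that shares sequence with them and for 3 that were higher in mutant cytoplasm. The 100 bases before each start are printed from the sacCer3 sequence of RefSeq, read 5′ to 3′ on the strand of the XUT. In the first 3, capitals mark a run of 22 bases that they share. XUT_7R-374 starts within a long terminal repeat (LTR) that RefSeq annotates as Ty2 and XUT_10R-186 within one of Ty1, while no LTR is annotated in the window of XUT_3F-78. In the fourth, which has the highest level of all in wild type, capitals mark a TATAAA. The last 3 windows lie inside a coding sequence of the other strand, that of UAF30, MRH4 and AIM32 in turn, and hold no TATAAA or TATATA.
XUT_7R-374, chrVII:811480-811579, minus strand: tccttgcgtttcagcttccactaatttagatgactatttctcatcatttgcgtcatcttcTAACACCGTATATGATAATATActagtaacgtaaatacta
XUT_10R-186, chrX:472497-472596, minus strand: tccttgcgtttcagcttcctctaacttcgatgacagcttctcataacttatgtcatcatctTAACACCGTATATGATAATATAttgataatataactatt
XUT_3F-78, chrIII:168798-168897, plus strand: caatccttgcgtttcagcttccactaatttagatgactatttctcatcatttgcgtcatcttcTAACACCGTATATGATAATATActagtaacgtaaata
XUT_12R-299, opposite GAS2, chrXII:818470-818569, minus strand: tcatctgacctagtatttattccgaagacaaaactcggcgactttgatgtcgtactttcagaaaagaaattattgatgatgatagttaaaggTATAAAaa
XUT_15R-380, opposite UAF30, chrXV:869518-869617, minus strand: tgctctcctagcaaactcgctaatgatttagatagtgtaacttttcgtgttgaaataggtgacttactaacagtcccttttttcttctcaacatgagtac
XUT_7F-185, opposite MRH4, chrVII:381697-381796, plus strand: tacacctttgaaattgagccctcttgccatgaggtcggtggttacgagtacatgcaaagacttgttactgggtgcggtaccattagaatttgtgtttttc
XUT_13R-73, opposite AIM32 and GAL80, chrXIII:173500-173599, minus strand: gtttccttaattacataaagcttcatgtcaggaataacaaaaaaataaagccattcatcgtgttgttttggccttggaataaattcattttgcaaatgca

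The shared run of 22 bases, searched on both strands, was found in the 100 bases before the start of 6 of the 931 XUTs (0.644%), 1 of 643 CUTs that overlap no XUT or SUT (0.156%), 0 of 297 SUTs that overlap no XUT or CUT and 5 of 6664 mRNAs (0.0750%). The run was taken from XUT_7R-374, XUT_10R-186 and XUT_3F-78, which are counted among the XUTs and hold it by construction. These shares therefore do not compare the classes. TATAAA on either strand or TATATA, which reads the same on both and can overlap it, was present in the same window of 21.7% of the XUTs, 25.9% of the SUTs, 30.8% of the CUTs and 29.0% of the mRNAs. Within the first 200 bases of the RNA, TCTTG, the core of the site of the nuclear termination factor Nab3, was found in 24.4% of the XUTs, 18.1% of the SUTs, 52.1% of the CUTs and 16.7% of the mRNAs. GTAG, the core of the site of its partner Nrd1, was found in 46.8% of the XUTs, 41.7% of the SUTs, 51.4% of the CUTs and 38.1% of the mRNAs. Both were searched on the strand of the RNA only. These shares describe letters in a window and say nothing of binding.

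Among the 622 XUTs opposite an mRNA, 244 covered its start codon, 196 its stop codon, and 57 of these covered both, while 239 covered neither. The start of the XUT lay within the coding sequence at 387 of the 622. The 191 that could be read differed in this, with 65 over the start codon, 100 over the stop codon, 31 over both and 57 over neither.

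Counts summed to between 24532091 and 37361004 per library. The mitochondrially encoded share was 3.31 to 6.41% in mutant cytoplasm, 9.47 to 14.3% in mutant total lysates, 2.32 to 2.70% in wild-type cytoplasm and 4.34 to 6.18% in wild-type total lysates. Between 903 and 1573 features had no read in a mutant library, against 1196 to 2421 in a wild-type library. MEX67, read from the opposite strand, was higher in mutant than in wild-type total lysates (log2 change 2.03, SE 0.12), and CRM1 was not called (0.14, adjusted p = 0.47). BY4741 is a strain of mating type a, but the alpha-factor gene MF(ALPHA)1 held between 3694 and 9141 reads in every library, whereas STE2, the receptor made by a cells, held 87 to 541. No label says that the 3 libraries of a group came from separate cultures, so p-values measure the spread between libraries.

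Changes are given after scaling by the trimmed mean of M-values (TMM), that is, relative to the bulk of features. Scaling to mitochondrially encoded transcripts moved the median log2 change of all features by −0.91 between total lysates, 1.13 between the wild-type fractions and 1.61 between the mutant fractions, and scaling to library totals moved it by 0.22, 0.14 and 0.50. The mitochondrial share was lower in cytoplasm than in total lysates of each strain, so mitochondrial scaling raises features between fractions. It was higher in mutant than in wild-type total lysates, so that scaling lowers features there. Every direction below holds for TMM scaling.

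XUTs were rare RNAs. The median XUT had 2.21, 2.12 and 1.83 RPKM in the 3 mutant cytoplasm libraries, 1.59, 1.31 and 1.43 RPKM in mutant total lysates, 1.17, 1.51 and 1.25 RPKM in wild-type cytoplasm and 1.02, 1.05 and 1.03 RPKM in wild-type total lysates. Mutant libraries lay above wild-type libraries of the same fraction, with no overlap, and cytoplasm lay above total lysate in each strain. In such bulk libraries fewer cells with an RNA and less of it per cell cannot be told apart. Together the 373 XUTs took 0.187 to 0.274% of all counts in mutant cytoplasm, 0.0967 to 0.125% in mutant total lysates, 0.0819 to 0.10% in wild-type cytoplasm and 0.0660 to 0.0741% in wild-type total lysates.

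A background level exists on this strand. The 1242 mRNA features with no annotated transcript opposite, measured in the same way, had a median of 0.688, 0.682 and 0.522 RPKM in mutant cytoplasm, 0.392, 0.270 and 0.377 RPKM in mutant total lysates, 0.334, 0.515 and 0.358 RPKM in wild-type cytoplasm and 0.189, 0.209 and 0.198 RPKM in wild-type total lysates. These medians were also highest in mutant cytoplasm and lowest in wild-type total lysates, and for both sets the mutant total and wild-type cytoplasm libraries overlapped. Over the 12 libraries the background median was 0.456 RPKM, and 121 of the 373 XUTs reached at least 5 times that level.

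**Figure D1:**
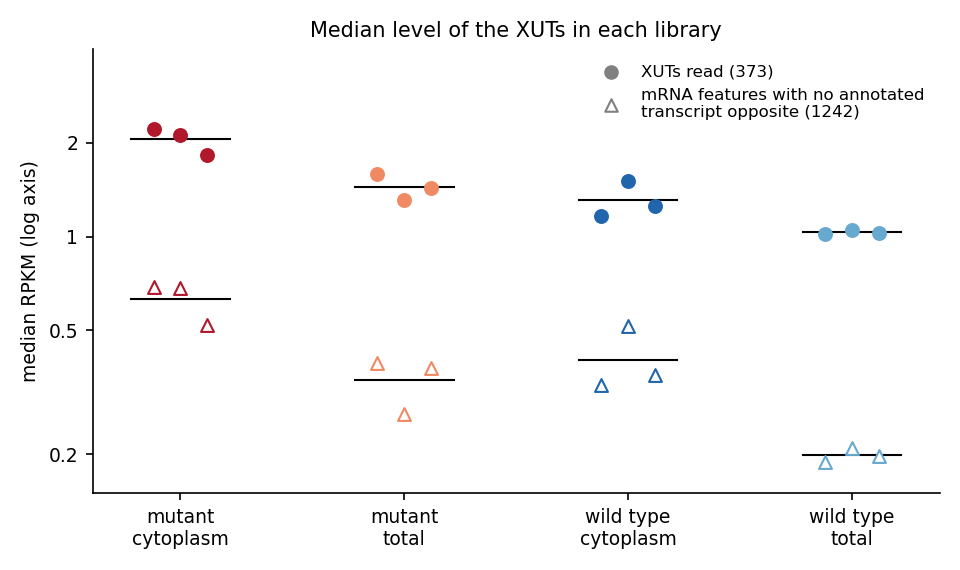
Median level of the 373 XUTs (filled circles) and of 1242 mRNA features with no annotated transcript opposite (open triangles) in each of the 12 libraries, in RPKM on a log axis, with lines at the mean of the 3 library medians of a group. Both sets were highest in mutant cytoplasm (XUTs 1.83 to 2.21 RPKM) and lowest in wild-type total lysates (XUTs 1.02 to 1.05 RPKM).

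Levels spread widely among loci. In mutant total lysates 10% of the XUTs lay under 0.435 RPKM and 10% over 5.62 RPKM, and in wild-type total lysates the same limits were 0.307 and 3.28 RPKM. A mean count above 40 was reached by 291 XUTs in mutant cytoplasm, 232 in mutant total, 208 in wild-type cytoplasm and 143 in wild-type total libraries. XUTs opposite mRNAs were the lowest by this measure, with medians of 0.945 to 1.15 RPKM in mutant total and 0.762 to 0.794 RPKM in wild-type total lysates. Those on strands with no annotated transcript opposite had 1.73 to 2.24 and 1.34 to 1.49 RPKM. These levels are per base of the whole counted feature, so they are too low for XUTs that cover little of it. Over all libraries the median was 2.10 RPKM for the 211 XUTs described above as covering more of the counted feature. It was 1.04 RPKM for the 162 that cover less. Whether the kinds differ in level apart from this was not tested.

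XUT_12R-299 had the highest level of all in wild-type total lysates. It runs antisense across GAS2, which encodes a glucanosyltransferase of the spore wall, at chrXII:815758-818469 on the minus strand, and it covers the whole counted feature, which holds 72.6% of it. The rest of the XUT runs opposite the end of FKS1, a glucan synthase gene. It had 83, 121 and 60 reads in mutant cytoplasm, 81, 76 and 83 in mutant total lysates, 1300, 1142 and 1239 in wild-type cytoplasm and 2097, 1433 and 2150 in wild-type total lysates. All 6 mutant libraries lay far below all 6 wild-type libraries, at means of 1.23 ± 0.12 RPKM in mutant total and 34.3 ± 5.17 RPKM in wild-type total lysates (SD, n = 3 each).

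In mutant total lysates XUT_12F-84 and XUT_4R-468 were the highest, at 20.04 ± 6.08 and 19.99 ± 3.0 RPKM (SD, n = 3 each). XUT_4R-468 (chrIV:1155963-1158870, minus strand) was read across an unnamed transcript, ST0680. Another part of this XUT runs over HXT7 on the same strand, and its start lies 437 bases downstream of HXT6. HXT6 and HXT7 are near-identical hexose transporter genes, so reads of this family are uncertain. It had 938, 1190 and 1579 reads in mutant total lysates, against 255, 202 and 214 in wild-type total lysates. In the cytoplasm it had 3111, 3445 and 2429 reads in the mutant, against 394, 556 and 391 in wild type. The HXT6 mRNA, read from the opposite strand, was 1.33 higher in mutant than in wild-type total lysates (log2, SE 0.19), and the XUT 2.21 higher (SE 0.13).

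XUT_12F-84 lies opposite YLR036C, a gene of unknown function, and had 784, 555 and 1231 reads in mutant total against 250, 307 and 367 in wild-type total lysates. Its level exceeded that of the mRNA in mutant total lysates, where YLR036C had 6.26 ± 0.539 RPKM, while in wild type the XUT had 8.86 ± 2.07 and the mRNA 9.72 ± 1.76 RPKM (SD, n = 3 each). The XUT level is per base of the counted feature, of which it covers 57.8%, and the mRNA level per base of the XUT.

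XUT_3F-78, whose start is printed above, had 875, 606 and 766 reads in mutant total and 859, 770 and 977 in wild-type total lysates. In the cytoplasm it had 1621, 2387 and 267 reads in the mutant, where replicate 3 stood far below the others, and 606, 610 and 744 in wild type. Of its counted feature 66.8% is repeated elsewhere in the genome at 98% identity or more, and the XUT itself covers 23.7%, so its reads cannot be assigned to this locus alone.

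The remaining loci of the 10 highest in each strain were mostly on strands with no annotated transcript opposite. XUT_11F-113, XUT_13F-390, XUT_12F-257 and XUT_16F-1 were among them in the mutant only, at 17.8 ± 2.29, 12.5 ± 3.98, 11.4 ± 0.514 and 10.7 ± 5.57 RPKM in mutant total and 1.20 ± 0.163, 3.30 ± 0.309, 2.04 ± 0.504 and 7.60 ± 2.08 RPKM in wild-type total lysates. XUT_10R-186, XUT_16R-348, XUT_12R-389 and XUT_5R-115 were among them in wild type only. XUT_5R-194, XUT_7R-426 and XUT_15F-436 were in both lists, with 15.2 and 15.0, 11.6 and 11.2, and 11.2 and 10.7 RPKM in mutant total and wild-type total lysates, and these 3 were not called between the strains (adjusted p = 0.88, 0.69 and 0.69 by edgeR's quasi-likelihood test). XUT_16F-1 was not called either (adjusted p = 0.27). Of the counted feature of XUT_5R-194, 30.2% is repeated elsewhere.

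Between the total lysates of mex67-5 xpo1-1 and wild type, XUTs were more often higher than lower in the mutant. Of the 373 XUTs, 201 had a mean count above 40 and were tested, and 105 of them were higher and 15 lower in the mutant at an adjusted p under 0.05 by edgeR's quasi-likelihood test. Of all 12360 features tested, 26.9% were higher and 25.6% lower. The median log2 change was 0.61 for the XUTs tested and 0.01 for all features. Under scaling to mitochondrially encoded transcripts the direction turned, with 23 higher, 60 lower and a median of −0.28. The median of all features was then −0.90, and 8.49% of all called features were higher. Under library totals 120 XUTs were higher and 9 lower. Of the called XUTs, 66 were over 2-fold higher and 6 over 2-fold lower, and at 115 of the 120 called loci the libraries of the strains did not overlap. The shares over 2-fold and without overlap among all called features were not computed, and a call by itself favours loci whose libraries do not overlap. Members that passed the filter on counts through a high level in 1 strain had to differ, so these counts are a description.

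The strand opposite other mRNAs moved in the same direction. Of the 1242 mRNA features with no annotated transcript opposite, 201 were tested, 130 were higher and 8 lower in the mutant, and their median log2 change was 1.12. The share higher was 52.2% for the XUTs and 64.7% for these features, a difference that was not tested. Of the 109 tested XUTs at 5 or more times the background level, 62 were higher and 10 lower, with a median of 0.74. Among the kinds of locus, 48 of 95 XUTs opposite mRNAs, 7 of 11 opposite other RNAs and 50 of 95 on strands with no annotated transcript opposite were higher, and 7, 1 and 7 were lower. Without mutant total replicate 3 the number lower was 9.

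XUT_12R-299 fell by 4.79 on the log2 scale (SE 0.16, adjusted p = 4.7e-07). XUT_7R-374 (chrVII:810551-811479, minus strand) had the largest fall and covers 75.7% of its counted feature. It had 4, 2 and 4 reads in mutant total and 144, 76 and 120 in wild-type total lysates, and in the cytoplasm 10, 12 and 11 in the mutant and 226, 161 and 126 in wild type. The log2 change between total lysates was −5.26 (SE 0.34, adjusted p = 6.3e-06), and the XUT passed the filter on counts through its wild-type level. At both loci each mutant library lay far below each wild-type library of either fraction. XUT_10R-186 (chrX:472102-472496, minus strand) had 101, 114 and 134 reads in mutant total and 316, 335 and 466 in wild-type total lysates (log2 change −1.93, SE 0.18). Of the counted features of XUT_7R-374 and XUT_10R-186, 31.3 and 27.0% are repeated elsewhere. XUT_12R-135, opposite YLR124W, had 44, 56 and 63 reads in mutant total against 129, 106 and 165 in wild-type total lysates (−1.54, SE 0.20), while the YLR124W mRNA was higher in the mutant (1.73, adjusted p = 0.00012). XUT_7R-319, opposite a Ty gag gene, fell by 1.15 on the log2 scale, and its whole counted feature is repeated.

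The 5 XUTs with the largest rises had at most 31 reads in any wild-type total library, so all 5 passed the filter on counts through the mutant. XUT_11F-113 (chrXI:260326-260671, plus strand) lies between CWP2 and CWP1, genes of cell wall mannoproteins on the same strand, and had 475, 387 and 521 reads in mutant total against 27, 21 and 30 in wild-type total lysates (log2 change 3.90, SE 0.18, adjusted p = 1.4e-06). It covers 44.5% of its counted feature, and CWP2 ends 422 bases before its start. XUT_6F-39 (chrVI:97969-98637, plus strand) starts 164 bases after GAT1, which encodes a transcription factor of nitrogen metabolism, and had 246, 211 and 329 reads in mutant total against 27, 15 and 13 in wild-type total lysates (3.59, SE 0.24). All mutant libraries at these loci lay above all wild-type libraries of either fraction.

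XUT_3R-147, opposite RDS1, which encodes a zinc cluster transcription factor, had 116, 85 and 141 reads in mutant total against 11, 2 and 6 in wild-type total lysates (3.91, SE 0.37). It covers 17.8% of its counted feature, 17.7% of which is repeated elsewhere. XUT_10F-42 had 157, 124 and 196 against 15, 10 and 4 reads (3.78, SE 0.33) and XUT_16R-94 had 248, 210 and 307 against 31, 15 and 24 reads (3.21, SE 0.22). The part of XUT_16R-94 that was not counted runs over TRE1 on the same strand. Of these 5 XUTs only XUT_3R-147 lies opposite an mRNA, and RDS1 was higher in the mutant by 0.62 (adjusted p = 0.0027).

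**Figure D2:**
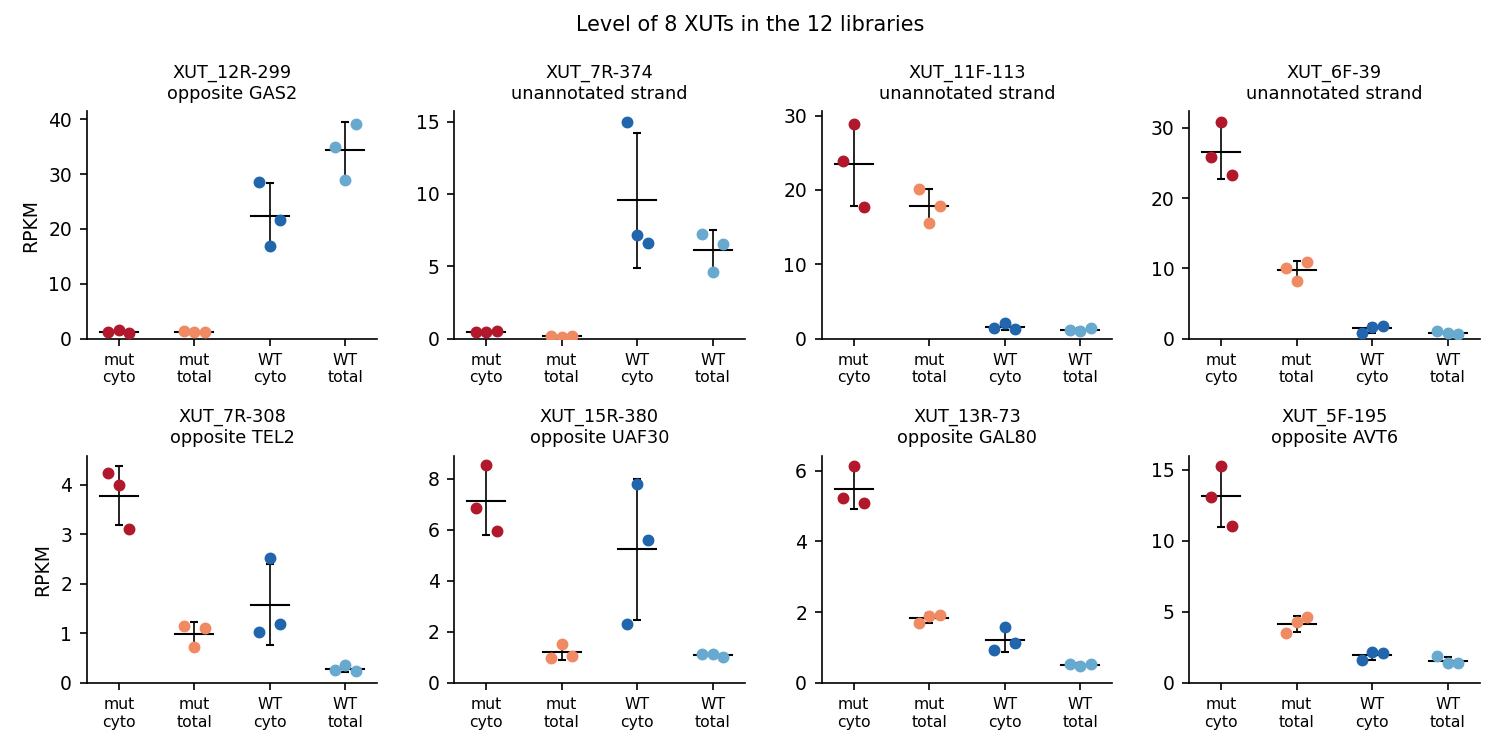
Level of 8 XUTs in RPKM on linear axes, 1 point per library, with the mean and SD of 3 libraries for mutant cytoplasm, mutant total, wild-type cytoplasm and wild-type total from left to right. XUT_12R-299 and XUT_7R-374 are near 0 in all mutant libraries (means of 1.23 and 0.153 RPKM in mutant total lysates), XUT_11F-113 and XUT_6F-39 are low in wild type, and XUT_7R-308 and XUT_15R-380 are higher in the cytoplasm of both strains.

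In wild type, XUTs were more often higher than lower in the cytoplasm relative to total lysates. Of the 185 XUTs tested, 63 were higher and 15 lower in the cytoplasm, and of all 11976 features tested 22.3% were higher and 17.6% lower. The median log2 change was 0.38 for the XUTs and 0.02 for all features. Members that passed the filter on counts through a high level in 1 fraction had to differ, so these counts too are a description. The fits here treat the libraries as unpaired, and counts with same-numbered libraries paired are given with the processing. The counts were 73 and 8 under library totals and 161 and 0 under scaling to mitochondrially encoded transcripts. Of all called features 73.7 and 99.5% were higher under these 2 scalings. By kind, 41 of 99 XUTs opposite mRNAs were higher and 4 lower (median 0.59), 5 and 1 of 10 opposite other RNAs (0.48), and 17 and 10 of 76 on strands with no annotated transcript opposite (0.06). The share higher in this last kind, 22.4%, is close to that of all features. The mRNA features with no annotated transcript opposite had 97 higher and 20 lower of 180 tested, with a median of 0.98.

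These counts depended on single libraries. The number higher was 77 without wild-type cytoplasm replicate 1, 33 without replicate 2 and 35 without replicate 3 of that group. It was 35, 40 and 38 without wild-type total replicates 1, 2 and 3. The number lower was 6 without wild-type cytoplasm replicate 3 and 8 without wild-type total replicate 3. Wild-type cytoplasm replicate 2 had the fewest features at 0 among the wild-type libraries (1196) and the highest XUT median of its group (1.51 RPKM). What else sets this library apart was not tested.

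The XUT with the largest cytoplasmic excess in wild type was XUT_10F-42, with 28, 167 and 84 reads in the cytoplasm against 15, 10 and 4 in total lysates (log2 change 3.15, SE 0.59, adjusted p = 0.006). XUT_7R-308 is antisense to TEL2, which encodes a subunit of the TTT complex that stabilises PI3-kinase-like kinases, at chrVII:689271-689879. It had 56, 205 and 81 reads in wild-type cytoplasm against 18, 21 and 16 in total lysates (2.54, SE 0.42). XUT_5R-40, antisense to YEF1, an NADH kinase gene, had 66, 386 and 165 against 31, 35 and 39 reads (2.43, SE 0.48). At all 3 loci replicate 2 was the highest cytoplasm library. XUT_15R-380, antisense to UAF30, which encodes a part of the upstream activating factor of RNA polymerase I, had 52, 263 and 159 reads in the cytoplasm against 33, 28 and 28 in total lysates (2.31, SE 0.43). The mRNAs of TEL2, YEF1 and UAF30 were not called in the same comparison (log2 changes 0.03, 0.37 and −0.36).

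KCS1, which encodes an inositol hexakisphosphate kinase, and GAL80, which encodes the repressor of Gal4, are loci at which antisense RNA is well known. XUT_4F-238, antisense to KCS1, had 51, 101 and 67 reads in wild-type cytoplasm against 19, 17 and 20 in total lysates (1.92, SE 0.24), on a counted feature of which it covers 9.6%. It passed the filter on counts there through the cytoplasm. In the mutant it had 224, 310 and 157 reads in cytoplasm and 85, 56 and 99 in total lysates (1.39, SE 0.25). XUT_13R-73 starts over AIM32 and runs on across GAL80, whose feature holds 81.6% of it and was the one counted, and the XUT covers 99.8% of that feature. It had 34, 88 and 53 reads in wild-type cytoplasm against 26, 19 and 24 in total lysates (1.29, SE 0.28). It passed the filter on counts there through the cytoplasm as well. In the mutant it had 286, 390 and 272 reads in cytoplasm and 82, 98 and 117 in total lysates (1.54, SE 0.16). Its total level was 1.86 higher in the mutant on the log2 scale (SE 0.20, adjusted p = 9.4e-05), where it passed the filter through the mutant counts. At GAL80 and KCS1 no mutant library overlapped the wild-type libraries of the same fraction, and the cytoplasm to total ratios did not differ beyond the error (interaction 0.32, adjusted p = 0.53, and −0.47, adjusted p = 0.42, by edgeR's quasi-likelihood test). XUTs of this class also lie opposite PHO85, CSS1, HEM15, MTR2 and ADH2, but a further transcript lies on the counted feature there.

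The falls in wild-type cytoplasm of XUT_16R-348, XUT_16R-29 and XUT_16R-346 turned to rises of 0.11, 0.11 and 0.16 under scaling to mitochondrially encoded transcripts. Under that scaling, which moved the median of all features by 1.13, the fall of XUT_10R-186 shrank to −0.07. XUT_10R-186 had 191, 139 and 145 reads there against 316, 335 and 466 in total lysates (−1.21, SE 0.28). XUT_16R-348 (chrXVI:780313-781815, minus strand), part of which runs opposite the gene THI22, had 112, 166 and 126 against 239, 301 and 279 reads (−1.05, SE 0.18). The count there comes from the stretch beside THI22 with no annotated transcript opposite. XUT_15R-264, opposite EFT1, a gene of elongation factor eEF2, fell by 1.93 on the log2 scale (adjusted p = 0.012), but it covers 7.8% of the counted feature, 84.7% of which is repeated elsewhere, and without wild-type cytoplasm replicate 3 its adjusted p was 0.055 by edgeR's quasi-likelihood test. XUT_16R-29 had 26, 43 and 30 reads in cytoplasm against 76, 53 and 68 in total lysates (−1.01, SE 0.21), and 43.4% of its counted feature is repeated elsewhere. XUT_16R-346 fell by 0.99, with an adjusted p of 0.064 without wild-type total replicate 3 and 0.053 without wild-type cytoplasm replicate 3.

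In mex67-5 xpo1-1 cells, too, more XUTs were called higher than lower in the cytoplasmic fraction relative to total lysates. Of the 273 XUTs tested 149 were higher and 14 lower in the cytoplasm, and of all 13763 features tested 30.0% were higher and 28.7% lower. The median log2 change was 0.65 for the XUTs and −0.01 for all features. The limit set by the filter on counts holds here as in wild type. The counts were 188 and 0 under library totals and 259 and 0 under scaling to mitochondrially encoded transcripts. Of all called features 87.8 and 99.7% were higher under these 2 scalings. Of XUTs opposite mRNAs 86 of 144 were higher and 3 lower (0.70), of those opposite other RNAs 9 of 14 were higher and 1 lower (1.13), and of those on strands with no annotated transcript opposite 54 of 115 were higher and 10 lower (0.52). The mRNA features with no annotated transcript opposite had 342 higher and 22 lower of 468 tested, with a median of 1.16.

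**Figure D3:**
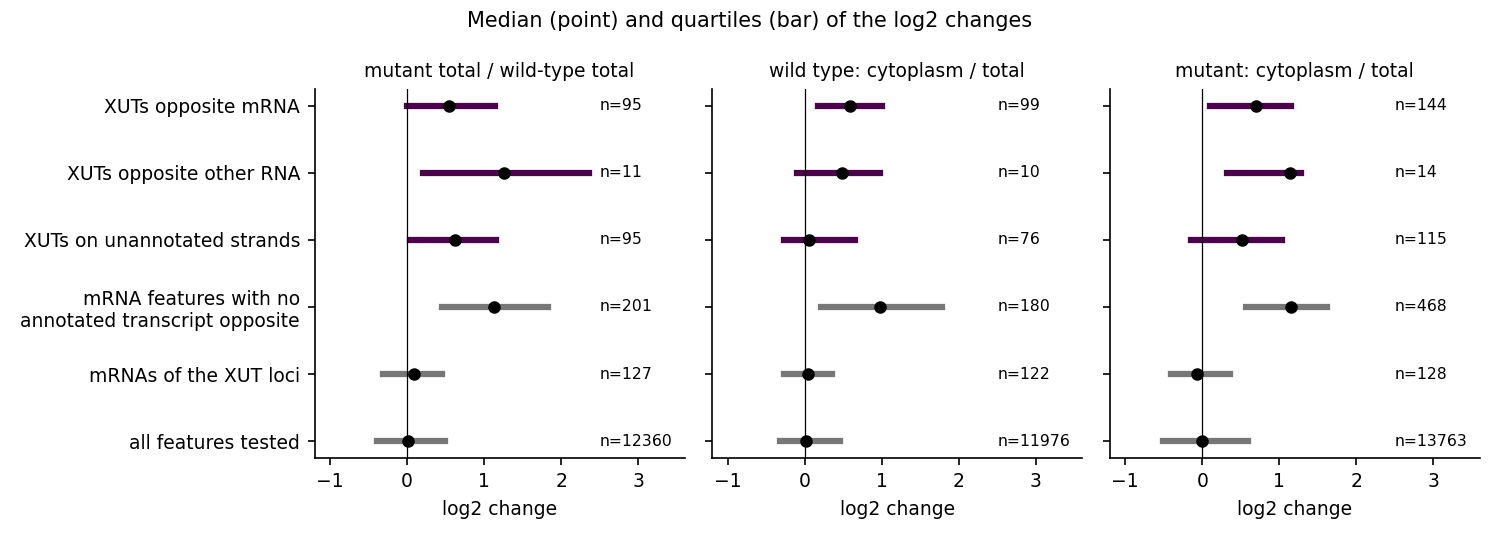
Median (point) and quartiles (bar) of the log2 change over the tested loci of each set, for mutant total over wild-type total, wild-type cytoplasm over total and mutant cytoplasm over total, with the number tested. The 3 kinds of XUT had medians of 0.54, 1.26 and 0.62 between total lysates with TMM scaling. Over all XUTs the median was 0.61, and −0.28 under mitochondrial scaling, where that of all features was −0.90. The mRNA features with no annotated transcript opposite had 1.12, 0.98 and 1.16 in the 3 comparisons.

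The UAF30 antisense XUT had the largest rise in the mutant, with 228, 329 and 194 reads of XUT_15R-380 in cytoplasm against 29, 48 and 39 in total lysates (log2 change 2.55, SE 0.23, adjusted p = 0.00012). XUT_7F-185 runs antisense within MRH4, the gene of a mitochondrial DEAD-box helicase, at chrVII:381797-382479 on the plus strand, and covers 35.8% of the counted feature. It had 514, 680 and 419 reads in mutant cytoplasm against 95, 83 and 123 in mutant total lysates (2.29, SE 0.17). XUT_15F-180, antisense to DDL1, the gene of a putative carboxylic ester hydrolase, had 92, 130 and 74 against 19, 15 and 21 reads (2.28, SE 0.25). Both it and XUT_15R-380 passed the filter on counts through the cytoplasm. At these 3 loci the lowest cytoplasm library held over 3 times the reads of the highest total library. The YEF1 and TEL2 antisense XUTs followed at 2.09 (SE 0.20) and 1.90 (SE 0.22). The mRNAs of UAF30, MRH4 and DDL1 changed by −0.18, −0.30 and −0.18 and were not called.

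No XUT was called lower in mutant cytoplasm under the other scalings. The falls given here, all with TMM, lost their call under library totals. They turned to rises under scaling to mitochondrially encoded transcripts, which moved the median of all features by 1.61. XUT_5R-115 (chrV:248478-249872, minus strand), which starts near a Ty3 LTR, had 270, 356 and 112 reads in cytoplasm against 539, 418 and 544 in total lysates (−1.18, SE 0.30). Mutant cytoplasm replicate 3 was the lowest there, and 16.5% of the counted feature of XUT_5R-115 is repeated elsewhere. XUT_13F-5, antisense to PGA3, a cytochrome-b5 reductase gene, had 101, 84 and 131 against 202, 201 and 189 reads (−1.02, SE 0.24). The same XUT had 202, 201 and 189 reads in mutant total against 32, 12 and 37 in wild-type total lysates, a log2 change of 2.65 (SE 0.30). It passed the filter on counts there through the mutant. XUT_12R-389 fell by 0.98 (SE 0.18), and its call held without each of the 6 libraries in turn.

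Other falls in the mutant were called or not by the library left out. XUT_16R-29 fell by 1.13 (adjusted p = 0.034), with adjusted p of 0.12 and 0.065 without mutant total replicates 1 and 2 and 0.062 without mutant cytoplasm replicate 2. XUT_15F-1 fell by 0.95 (adjusted p = 0.029), with 0.12 without mutant total replicate 1 and 0.11 and 0.070 without mutant cytoplasm replicates 2 and 3. XUT_16R-348 fell by 1.06 (adjusted p = 0.032), with 0.12 and 0.098 without mutant total replicates 1 and 3, all by edgeR's quasi-likelihood test. Mutant cytoplasm replicate 3 had the lowest XUT share of counts in its group (0.187%) and the lowest mitochondrial share (3.31%).

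Of 177 XUTs tested in both strains, 55 were higher in the cytoplasm of both, which is 59.8% of the 92 higher in the mutant and 91.7% of the 60 higher in wild type. Lower in both were 8, which is 66.7% of 12 and 57.1% of 14. None of the 177 was called in opposite directions. The matching shares over all features were not computed, so these counts do not set the XUTs apart from other features. TEL2, YEF1 and UAF30 antisense XUTs had the largest rises common to both strains. The falls common to both with the largest smaller change were those of XUT_16R-348, XUT_16R-29 and XUT_7R-426. The last of these lies 174 bases from CRM1 and had 240, 351 and 149 reads in mutant cytoplasm against 453, 355 and 447 in mutant total lysates, and 184, 255 and 215 in wild-type cytoplasm against 346, 328 and 339 in wild-type total lysates. Its counted feature is 65.1% repeated.

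**Figure D4:**
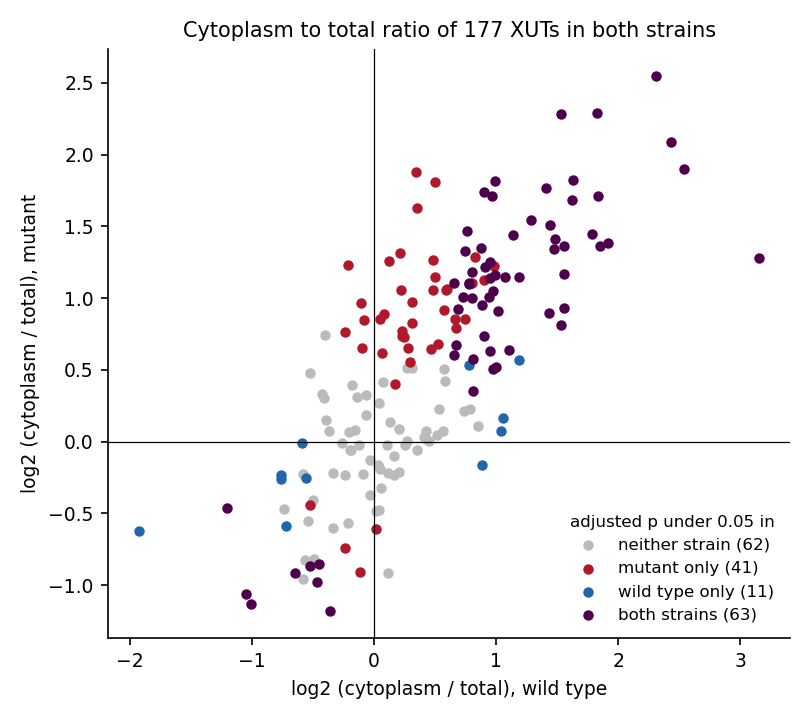
Log2 ratio of cytoplasm to total in the mutant (vertical axis) against wild type (horizontal axis) for 177 XUTs tested in both strains, coloured by the strain in which the adjusted p was under 0.05. The 63 XUTs called in both strains lie in the upper right and lower left, and 62 were called in neither (TMM scaling, under which 8 were lower in both, while none was lower under mitochondrial scaling). The matching shares over all features were not computed.

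An interaction term fitted to the 12 libraries asked whether mutant and wild type differ in the cytoplasm to total ratio. Of 251 XUTs tested, 9 had a higher ratio in the mutant and 0 a lower one by edgeR's quasi-likelihood test, against 4.57 and 5.68% of all 13145 features. At an unadjusted p under 0.05 there were 29 higher and 4 lower, and DESeq2 called 13 and 1. The matching shares of all features were not computed for these 2 settings. The median interaction was 0.20 for the XUTs and −0.10 for all features. A share of 3.59% higher lies below that of all features. The count was 19 without mutant cytoplasm replicate 3, 5 without wild-type total replicate 1, wild-type total replicate 3 or mutant total replicate 1, and 4 without wild-type cytoplasm replicate 3, mutant total replicate 2, mutant cytoplasm replicate 1 or mutant cytoplasm replicate 2. Without wild-type cytoplasm replicate 1, 1 XUT was lower.

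The XUT with the largest interaction, XUT_15R-489 (chrXV:1070647-1070931, minus strand), starts 561 bases downstream of FDH1, the gene of formate dehydrogenase, on the same strand. It had 140, 178 and 95 reads in mutant cytoplasm against 54, 29 and 56 in mutant total, and 11, 17 and 11 in wild-type cytoplasm against 22, 22 and 25 in wild-type total lysates (2.33, SE 0.42, adjusted p = 0.0055). It was thus above total lysate in mutant cytoplasm and below it in wild-type cytoplasm, with no overlap on either side. Its counts were too low for the wild-type comparison and that of total lysates, and it entered the interaction fit through its mutant counts. XUT_5F-195, antisense to AVT6, a vacuolar transporter gene for aspartate and glutamate, had 705, 956 and 581 against 170, 218 and 275 reads in the mutant and 58, 117 and 96 against 90, 55 and 63 in wild type (1.34, SE 0.26, adjusted p = 0.0077). Its wild-type fractions overlapped, and its mutant fractions did not.

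Where the mRNA of the locus could also be read, the XUT was at most loci the minor strand by the measure used. At 134 loci the XUT had a median of 4.52% of the mRNA level per base in mutant total and 3.55% in wild-type total lysates. The XUT level was taken over the whole counted feature and the mRNA level over the XUT. These percentages are therefore too low for XUTs that cover little of the counted feature. It reached or passed the mRNA at 7 loci in each strain, and at 51 loci it stayed below 2% in wild-type total lysates, a level at which reads assigned to the wrong strand could weigh. The mRNAs of these loci had medians of 0.09 between total lysates (32 of 127 higher, 27 lower), 0.04 between the wild-type fractions (23 of 122 higher, 16 lower) and −0.06 between the mutant fractions (36 of 128 higher, 30 lower).

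**Figure D5:**
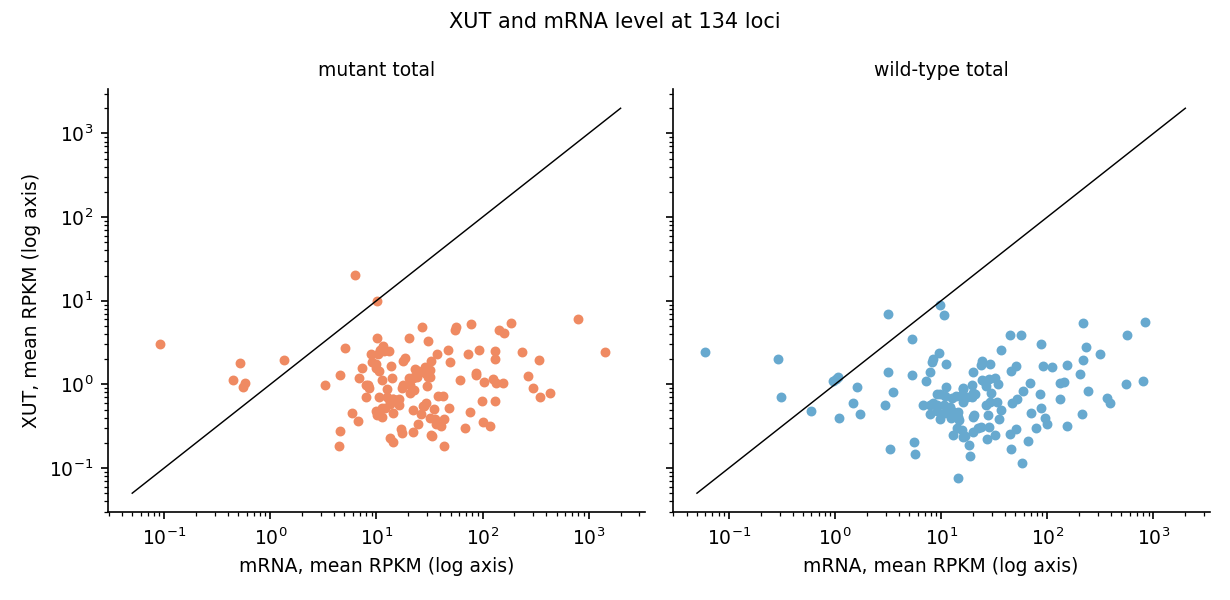
Mean level of the XUT (vertical axis) against that of the mRNA on the other strand (horizontal axis), in RPKM on log axes, at 134 loci in mutant total lysates (left, without 1 locus at 0) and wild-type total lysates (right), with a line of equal level. Most points lie below the line, with median XUT levels of 4.52 and 3.55% of the mRNA. XUT levels are per base of the whole counted feature and mRNA levels per base of the XUT.

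Across the loci with both strands tested, Spearman's rho between their log2 changes was 0.17 between total lysates (64 loci), 0.34 between the wild-type fractions (66 loci) and 0.06 between the mutant fractions (98 loci), where loci share libraries and are not replicates. Of 34 XUTs higher in mutant total lysates, 8 had an mRNA that was higher and 8 one that was lower. Of 59 XUTs higher in mutant cytoplasm, 19 had a higher and 14 a lower mRNA, and of 28 higher in wild-type cytoplasm, 7 had a higher and 5 a lower mRNA.

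Grouped by the RefSeq product of the gene opposite, known for 187 of 191 loci, XUTs opposite transporters or permeases were higher in mutant cytoplasm at 6 of 6 tested loci, and in wild-type cytoplasm at 2 of 4. Opposite kinases or phosphatases, 8 of 12 were higher in mutant cytoplasm, 4 of 10 in wild-type cytoplasm and 8 of 11 in mutant total lysates. Opposite transcription factors or DNA-binding proteins the counts were 2 of 4, 1 of 3 and 2 of 3, opposite ribosomal or translation proteins 2 of 3, 1 of 3 and 2 of 3, and opposite uncharacterized proteins 9 of 16, 4 of 12 and 4 of 10, in the same order. None of these groups had a lower XUT, apart from 1 opposite an uncharacterized protein in mutant cytoplasm. Of all features 30.0% were higher in mutant cytoplasm, 22.3% in wild-type cytoplasm and 26.9% in mutant total lysates, and of all XUTs opposite mRNAs 86 of 144, 41 of 99 and 48 of 95. No partner carried a product text of the mitochondrial or the meiosis and mating groups.

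By position on the gene, in mutant cytoplasm 18 of 24 XUTs over the start codon alone were higher and 0 lower, against 30 and 3 of 53 over the stop codon alone, 13 and 0 of 23 over both and 25 and 0 of 44 over neither. Between total lysates the numbers higher in the mutant were 4 of 13, 22 of 39, 8 of 17 and 14 of 26. Of all features 30.0% were higher and 28.7% lower in mutant cytoplasm, and 26.9% higher in mutant total lysates. No test of a difference between positions was made.

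LTRs of Ty elements lay within 100 bases upstream of 18 of the 373 XUTs (4.83%) and of 21 of all 931 (2.26%), against 1 of 643 CUTs (0.156%), 0 of 297 SUTs and 105 of 6664 mRNAs (1.58%). This grouping was made after the values were seen and is a description. Between total lysates 6 of 12 tested were higher in the mutant and 3 lower (median 0.38), against 99 and 12 of 189 (0.62). Of these XUTs 0 of 10 tested were higher in wild-type cytoplasm and 4 lower, with a median of −0.30, against 63 and 11 of 175 for the other XUTs (median 0.43). In mutant cytoplasm 1 of 10 was higher and 3 lower (−0.24), against 148 and 11 of 263 (0.67). Of all features 26.9% were higher and 25.6% lower between total lysates. The shares were 22.3 and 17.6% in wild-type cytoplasm and 30.0 and 28.7% in mutant cytoplasm. No difference between these sets was tested. The 3 most abundant of the 18 in mutant total lysates were XUT_12F-84, XUT_12F-257 and XUT_2R-85, the last antisense to PDR3, a regulator gene of drug resistance, with 20.04, 11.4 and 10.03 RPKM there and 8.86, 2.04 and 6.78 RPKM in wild-type total lysates. XUTs whose counted feature holds a repeat of 50 bases or more had 2 higher and 7 lower of 33 in wild-type cytoplasm and 5 higher and 7 lower of 37 in mutant cytoplasm. The 325 without a repeat had 61 and 8 of 152, and 144 and 7 of 236.

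Of 25 genes of XUT decay, 10 could be read and tested. XRN1 itself was lower in mutant total lysates, at 71.2 ± 8.87 RPKM, against 148 ± 5.48 RPKM in wild type (SD, n = 3 each; log2 change −1.04, SE 0.14, adjusted p = 0.00032). RAT1 and RAI1, the nuclear counterpart of Xrn1 and its partner, the decapping enhancers EDC3 and SCD6 and the Lsm ring gene LSM5 were also lower, by 0.44, 0.56, 0.43, 0.25 and 0.82 for the genes as named, UPF3 of nonsense-mediated decay was 0.32 higher, and the median over the 10 was −0.34. Between fractions, 1 was higher and 5 lower in wild-type cytoplasm (median −0.37) and 0 higher and 6 lower in mutant cytoplasm (median −0.70). No interaction was called. Of all features 25.6% were lower between total lysates, 17.6% in wild-type cytoplasm and 28.7% in mutant cytoplasm. These values were computed with TMM scaling only, and the shifts of all features under mitochondrial scaling given above exceed the medians between fractions. Whether these levels bear on the XUTs was not tested.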

How the data were processed

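RNA was sequenced as single reads from 12 yeast libraries, 3 in each of 4 groups, and the labels put every library in its group. The deposited values are whole-number counts per feature, made by the authors with STAR 2.5.2a on sacCer3 and featureCounts 1.5.0-p1 after bcl2fastq 2.17.1.14, per the submitters' processing notes. The strand and overlap settings of the counting are not given in the sources used here. The deposited annotation gives the other values, the start and end of each feature. No library was a copy of another, since each pair within a group differed beyond counting noise.

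The members and gene lists were chosen with earlier results of these data known. An XUT was a member if it shared no base on its strand with a SUT or CUT, and it was read as the report describes. A feature entered a comparison if its count averaged above 40 in that comparison's libraries, and these features were fitted together with edgeR 4.0.16 in R 4.3.3 (quasi-likelihood test, TMM scaling, Benjamini-Hochberg adjustment over all features, threshold 0.05), after the code had been tested on simulated data. RPKM used TMM-scaled library sizes and the length of the counted feature. Intervals from counting error were not used, and precision was judged from the spread over 3 libraries. No exact test on a single locus was made, since 3 libraries against 3 cannot reach a p under 0.10.

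Named loci were the 10 highest in the total lysates of each strain, the 5 largest rises and falls per comparison among called loci with no overlap of libraries (for the interaction, among called loci), the 3 with the largest smaller change called alike in both strains, and loci opposite genes of a list of 36, of which GAL80 and KCS1 could be read. XUT_9R-38, XUT_10R-257 and the LTR grouping were picked outside this rule, the last after values were seen. Repeats (50 bases or more at 98% identity) were found with BLAST+ 2.17.0, and the sequence was read from the RefSeq genome, in which 6656 of 6656 start codons of the annotation read ATG.

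Same-numbered wild-type libraries deviated together (correlations 0.35, 0.48 and 0.16 of the deviations from group means), so their numbers were taken to pair them. The wild-type counts and p-values in the report were fitted without that pairing. With it as a replicate block 73 XUTs were higher and 22 lower in wild-type cytoplasm, which is within 1.5 times the counts without it. Alternatives were DESeq2 1.42.0, library totals, mitochondrial scaling, other count filters, a replicate block, all libraries in 1 fit, other readings of the XUT, and each library left out. Restricting to loci without repeats, to levels at least 5 times the background, and to XUTs covering at least 0.5 of the counted feature was chosen after seeing the data.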

Additional observations from a re-analysis of the deposited data

Results flagged for a closer look

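At 9 XUTs the cytoplasm to total ratio differed between mex67-5 xpo1-1 and wild type by the interaction test (edgeR's quasi-likelihood test), each time higher in the mutant. XUT_15R-489, with a log2 difference of 2.33 (SE 0.42), and XUT_5F-195, antisense to AVT6, with 1.34 (SE 0.26), are described in the report. XUT_5R-216 (chrV:498375-498814, minus strand), 83 bases downstream of SPT2, had 426, 466 and 240 reads in mutant cytoplasm against 86, 84 and 110 in mutant total lysates, and 67, 159 and 93 in wild-type cytoplasm against 77, 67 and 98 in wild-type total lysates (1.60, SE 0.34). Of its counted feature 46.1% is repeated elsewhere. XUT_16R-6 (chrXVI:17327-18027, minus strand) had 309, 376 and 203 against 104, 100 and 141 reads in the mutant and 35, 57 and 60 against 61, 46 and 67 in wild type (1.51, SE 0.30). At both loci the mutant fractions did not overlap and the wild-type fractions did.

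The other 5 lay closer to the threshold. XUT_11R-208 had a difference of 1.14 (adjusted p = 0.041, and between 0.052 and 0.11 in 9 of the 12 fits that left out 1 library), XUT_8R-253 of 1.06 (adjusted p = 0.047, with its whole counted feature repeated elsewhere), XUT_1R-79 of 1.06 (adjusted p = 0.0498), XUT_6F-108 of 0.90 (adjusted p = 0.033) and XUT_2R-85, antisense to PDR3, of 0.87 (adjusted p = 0.049). XUT_2R-85 was the most abundant of these, with 2074, 3006 and 1668 reads in mutant cytoplasm against 946, 917 and 1468 in mutant total lysates, and 675, 644 and 618 in wild-type cytoplasm against 691, 536 and 637 in wild-type total lysates.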

How the results depend on the processing

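Scaling to mitochondrially encoded transcripts gave 23 XUTs higher and 60 lower between total lysates (median −0.28), 161 and 0 between the wild-type fractions, 259 and 0 between the mutant fractions and 3 higher by interaction. It turned the falls in mutant cytoplasm of XUT_12R-389 (0.60), XUT_13F-5 (0.69), XUT_15F-1 (0.66), XUT_16R-29 (0.39), XUT_16R-348 (0.42), XUT_5R-115 (0.31) and XUT_7R-426 (0.63), and in wild-type cytoplasm those of XUT_16R-29 (0.11), XUT_16R-346 (0.16), XUT_16R-348 (0.11) and XUT_7R-426 (0.49). Of all features called, it left 8.49% higher between total lysates, 99.5 and 99.7% between the wild-type and mutant fractions and 89.2% by interaction, and library totals left 73.7, 73.7, 87.8 and 82.5%, against 51.2, 55.9, 51.1 and 44.6% with TMM. Library totals gave 9, 8 and 0 XUTs lower in the comparisons of total lysates, wild-type fractions and mutant fractions, and 18 higher by interaction. Without a filter 34, 28 and 29 were lower and 4 higher by interaction, and above a mean count of 10 there were 30, 26 and 25 lower. Read by their deposited names, 60 and 48 were higher and lower between total lysates, 33 lower between the wild-type fractions, 97 and 46 between the mutant fractions and 14 and 9 by interaction. Where the feature had to hold 0.8 of the XUT, 9 were lower in wild-type cytoplasm. DESeq2 and the allowance of other XUTs each gave 1 lower by interaction. Loci without repeats had 9, 8 and 7 lower. Those 5 times above background had 62, 34 and 70 higher and 9 lower in mutant cytoplasm, and those where the XUT covers 0.5 of the feature had 63, 36 and 84 higher and 8 lower between total lysates. These 3 restrictions test fewer loci by construction. For the other settings the cause was not tested. Leaving out each library gave 86 to 105 higher and 9 to 18 lower between total lysates, 33 to 77 and 6 to 16 between the wild-type fractions, 122 to 156 and 10 to 14 between the mutant fractions, and 4 to 19 and 0 to 1 by interaction.

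With the replicate block the counts were 102 and 15, 73 and 22, 131 and 13, and 9 and 0, none over 1.5 times from those without it. Of the log2 changes of named loci only the interaction at XUT_11R-208 lost its call (adjusted p = 0.076, edgeR). In the mutant, same-numbered libraries had correlations of 0.39, −0.34 and −0.19, so the numbers were not taken to pair them, and between total lysates 0.05, 0.06 and 0.10, where each library correlated best with its own number.

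Over all alternatives, 45 log2 changes of named loci gave 614 values, of which 570 kept direction and call, 33 lost the call and 11 turned. The level per kilobase of the overlap in place of the counted feature moved 20 levels by more than the spread. At the depth of these libraries 90 of the 373 XUTs had a mean count above 40 in no comparison.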
